A study of Homo sapiens with 16 samples.

Results

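p53 binding was mapped by chromatin immunoprecipitation followed by sequencing (ChIP-seq) in MCF10A cells, a human mammary epithelial line that is immortalized but forms no tumours, and in G12V cells, the same line after lentiviral transduction with the oncogene HRAS G12V and hygromycin selection. All 4 p53 libraries, 2 replicates per cell type, came from cells treated before fixation with Nutlin, a compound that frees p53 from its inhibitor MDM2. The same antibody was used in both cell types and an input library served as the background of each peak call. The paper calls the replicates biological. Whether the selected G12V cells were 1 clone or a pool, and whether replicates came from separate cultures or transductions, is not given in the sources used here. The regions described here are the distal p53 sites found only in MCF10A. Peaks of the 4 lists were joined into 2980 sites wherever they shared 1 bp or more, and a site was kept when it had a peak in 1 or both MCF10A lists, none in a G12V list, and no overlap with a promoter, taken to reach from 1000 bp before to 500 bp after any start of transcription (TSS) annotated for a protein-coding gene. This left 345 of 2980 sites (11.6%), out of 2696 distal sites in all and 1668 distal sites with an MCF10A peak. The promoter limit removed 12 further sites found only in MCF10A. The members were thus chosen by the peak calls themselves: their peak values are given as a description, and only sequence, position and CTCF binding, which the calls did not use, were tested.

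p53 is a transcription factor that acts as a tetramer and is stabilised by stress such as DNA damage. Its response element consists of a pair of adjacent half-sites, each made of 3 purines, a core that begins with C and ends with G around a pair of A or T bases, and 3 pyrimidines, and each half-site is contacted by a pair of the tetramer's subunits. Many p53-bound sites lie in introns or between genes, where they can act as enhancers, and genes near strong elements include regulators of cell cycle arrest, DNA repair and apoptosis.

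The best p53 element of each of the 10 members that ranked highest in both MCF10A lists is printed here, since it shows what these sites hold under their summits. The elements are given 5′ to 3′ on the forward strand of hg19 (GRCh37), each named by the nearest protein-coding TSS, with the 4-base core of both half-sites in capitals. The element near CHL1 had no mismatch, those near LSMEM1, ANXA2, TDRD15 and STK11 had 1, those near CDH8, FAM120B and ADARB2 had 2, and those near LITAF and KRTAP10-7 had 3.
LSMEM1, chr7:112224535-112224554: tgaCATGtttgagCATGtcc
ANXA2, chr15:60609297-60609316: ggaCAAGccctggCTTGttt
CDH8, chr16:62887976-62887995: actCATGcctggaCATGccc
FAM120B, chr6:170541771-170541790: tgaCATGcctgaaCATGccg
LITAF, chr16:11656465-11656484: attCTTGcccaggCATGttg
ADARB2, chr10:1767321-1767340: gaaCCTGccaggaCATGtcc
KRTAP10-7, chr21:46018009-46018028: ctaCATGcccaggCATGccg
TDRD15, chr2:21585178-21585197: gggCAAGcctgaaCATGtca
STK11, chr19:1210591-1210610: gggCATGttcggtCATGcct
CHL1, chr3:153004-153023: agaCATGtctgagCATGtct

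The 150 bp around the summit is printed for the pair of members that ranked highest, with the whole element in capitals, to show its place in the window that was searched. The element centre lay 29.5 bp before the summit at LSMEM1 and 23.5 bp after it at ANXA2.
LSMEM1, chr7:112224499-112224648: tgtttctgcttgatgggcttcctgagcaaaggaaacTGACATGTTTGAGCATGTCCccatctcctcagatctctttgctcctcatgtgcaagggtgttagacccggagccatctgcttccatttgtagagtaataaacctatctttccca
ANXA2, chr15:60609208-60609357: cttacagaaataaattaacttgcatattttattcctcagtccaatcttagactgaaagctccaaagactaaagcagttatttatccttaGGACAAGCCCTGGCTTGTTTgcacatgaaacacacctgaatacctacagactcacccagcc

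The lists were of unequal length and depth. The MCF10A lists had 1718 (replicate 1) and 885 peaks (replicate 2), called at 21.4 and 20.1 M reads (M, 1e+06 reads), and the G12V lists had 477 and 2619 peaks at 9.26 and 23.9 M reads, as recovered from the peak values. The peak names of the G12V replicate 1 list, which the core class needs, carry the word old, and whether it came from another run than the other lists is not given in the sources used here. Of the members, 64 had a peak in both MCF10A lists, 249 in replicate 1 alone and 32 in replicate 2 alone, so 313 of the 1718 peaks of replicate 1 and 96 of the 885 peaks of replicate 2 belonged to members. Membership was set by a single G12V list. All 313 distal sites called in MCF10A replicate 1 and missing from G12V replicate 2 were also missing from G12V replicate 1, and leaving out G12V replicate 1 gave the same number of 345 members, whereas leaving out G12V replicate 2 gave 1292. A site without a G12V peak has no value in those lists, so it was not detected at that depth and is not shown to be unbound.

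Within MCF10A the members were weak peaks. In replicate 1 the fold enrichment, in which MACS2 divides summit reads plus 1 by local background plus 1 and which therefore understates the ratio at peaks of few reads, was lowest at 1.31 over the 313 member peaks, had a median of 6.78 and reached 23.3, against a median of 18.7 at the 288 core distal sites, which had a peak in all 4 lists. The summit pileup, the number of reads stacked at the summit, ran from 9 to 292 with a median of 16 at members, against 51.5 at core sites, and the median −log10 q was 7.85 against 51.5. In replicate 2 the fold of the 96 member peaks was lowest at 1.65, had a median of 6.52 and reached 13.9, with a median pileup of 13 reads and a median −log10 q of 6.20, against 19.5 for core sites. No member was among the 100 strongest peaks of either MCF10A list, and 12 were among the 477 strongest of replicate 1 and 20 among the 477 strongest of replicate 2. The members called in both lists were the stronger ones in replicate 1, with a median −log10 q of 13.3 against 7.24 for those of replicate 1 alone, and their range reached into that of the core sites, as the plot of −log10 q by class shows. Partly shared distal sites, with a peak in at least 1 list of each cell type but not in all 4, lay nearer to the members. Their median −log10 q was 12.9 in replicate 1 and 9.25 in replicate 2, with median folds of 8.32 and 7.69. In replicate 1 the medians of members of both lists were not below these (−log10 q 13.3, fold 8.61). In replicate 2 they were (6.70 and 7.06).

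**Figure D1:**
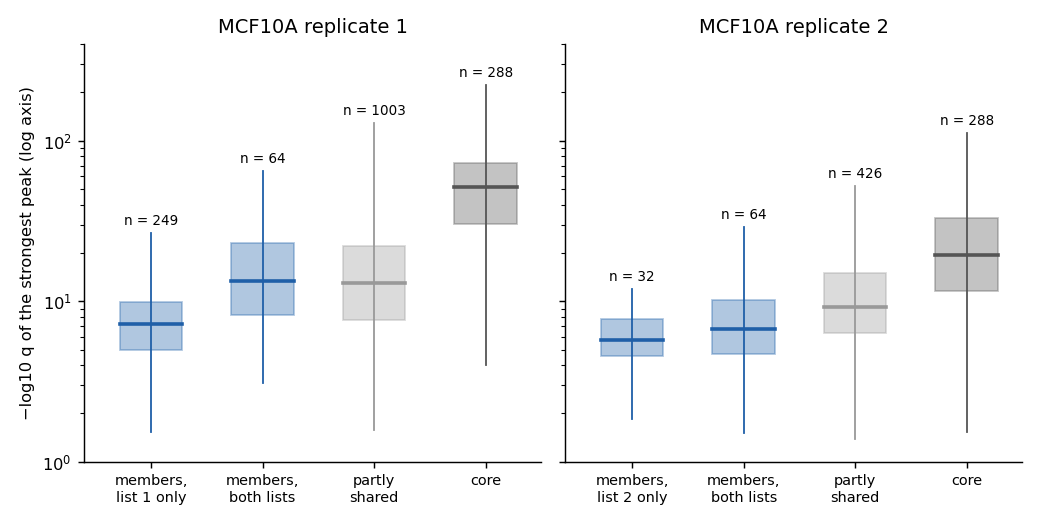
Strength of MCF10A p53 peaks at distal sites. The vertical axis is the −log10 q of the strongest peak of a site (log axis) in MCF10A replicate 1 (left) or 2 (right), boxes span the quartiles with the median as a bar, lines span lowest to highest, and partly shared sites had a peak in at least 1 list of each cell type but not in all 4. The member boxes lie below the core boxes in both lists, with medians of 7.24 and 13.3 (replicate 1 alone, both lists) against 51.5 on the left.

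The share of distal MCF10A sites that lacked a G12V peak fell with the strength of the MCF10A peak. When the 1604 distal sites of replicate 1 were divided into 5 equal groups by −log10 q, 124 of 321 (38.6%) were members in the weakest group, followed by 30.2%, 18.4% and 9.03%, and 4 of 320 (1.25%) in the strongest. Replicate 2 gave 27.2%, 16.0%, 9.26%, 6.17% and 0.617% over its own 5 groups. The order was the same in both libraries, and it comes from the measure that chose the members, so it is given with no test.

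**Figure D2:**
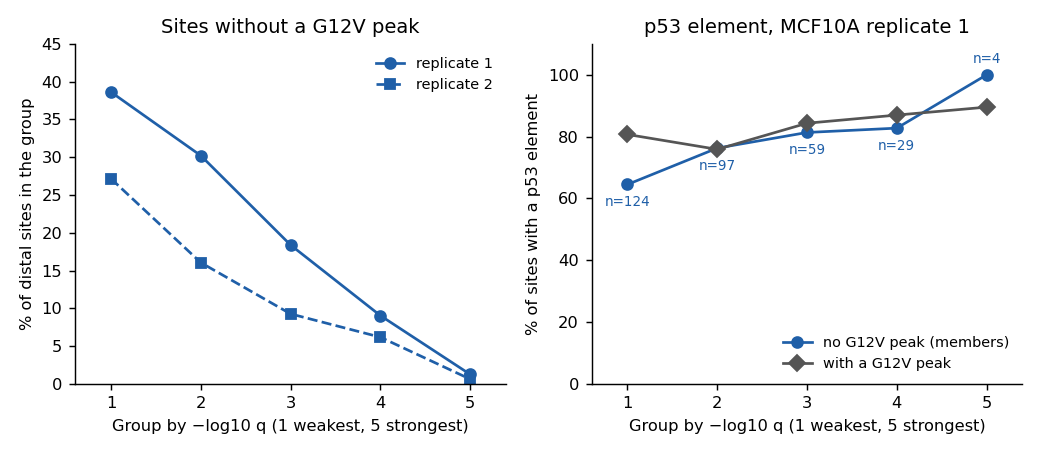
Members by peak strength. The left panel plots, for each MCF10A replicate, the percent of distal sites in each of 5 equal groups by −log10 q that had no G12V peak, and the right panel plots, for replicate 1, the percent of sites with a p53 element among members (n is their number) and among sites with a G12V peak. The share of members falls from 38.6% to 1.25% in replicate 1, and the element shares of both kinds of site lie apart in the weakest group, 64.5% and 80.7%.

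The strongest members are named by the nearest protein-coding TSS, which was not always close. The site at chr7:112224381-112224702, intergenic and 97678 bp from the TSS of LSMEM1, had a fold of 20.5 (51 reads at the summit) in MCF10A replicate 1 and 13.9 (34 reads) in replicate 2, ranking 183 and 121 in the lists. The site at chr15:60608991-60609451 lay 57421 bp from the TSS of ANXA2, which encodes annexin A2, a calcium-dependent protein that binds membranes and actin, and had a fold of 23.3 (58 reads) in replicate 1 and 12.3 (22 reads) in replicate 2. It was the only p53 site of any library within 100 kb of an ANXA2 TSS. An intergenic site 817054 bp from the TSS of CDH8, a cadherin (chr16:62887842-62888286, fold 16.2 and 10.9), came next. It was followed by a site in a non-coding gene, 58023 bp from the TSS of FAM120B (chr6:170541554-170541970, fold 13.3 and 11.7). At all 4 sites the fold was higher in replicate 1 than in replicate 2, and the nearest G12V p53 peak lay at least 163423 bp away.

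Of the other members that ranked highest in both lists, 4 were intronic. The site in LITAF, which encodes a protein of late endosomes and lysosomes (chr16:11656340-11656688), had a fold of 9.10 in replicate 1 and 11.4 in replicate 2. The site in ADARB2, a brain-expressed relative of the RNA-editing enzymes (chr10:1767212-1767533), had 15.4 and 9.77. The site in STK11, which encodes the kinase LKB1, an activator of AMPK (chr19:1210341-1210730, 3511 bp from the TSS), had 8.85 and 10.3, and a G12V p53 peak lay 3229 bp from its edge. The site in an intron of TSPEAR, nearest to the keratin-associated gene KRTAP10-7 (chr21:46017874-46018157), had 8.89 and 12.2. The other pair lay in non-coding genes, 224850 bp from the TSS of TDRD15 (chr2:21585002-21585333, 8.21 and 11.4) and in CHL1-AS2, antisense to CHL1 (chr3:152829-153161, 13.02 and 8.69). Neither replicate was the higher one throughout.

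The members of a single list differed between the libraries. The strongest of replicate 1 alone lay in introns of VAV2 (chr9:136753446-136753741, fold 13.02, 32 reads), and of LIMK2, a kinase that phosphorylates the actin regulator cofilin (chr22:31614934-31615208, fold 13.3, 28 reads), and in the non-coding gene LETR1, 750673 bp from the nearest coding TSS, that of MCTP2 (chr15:95770158-95770459, fold 12.8, 27 reads). Each held an element with 1 or 2 mismatches. Those of replicate 2 alone were near ANKRD30BL (chr2:133025775-133025899, fold 3.33, 66 reads), near TUBB8B in the non-coding gene ROCK1P1 (chr18:110632-110762, fold 4.16, 43 reads) and in an intron of RPAIN (chr17:5335349-5335481, fold 8.69, 16 reads). The first pair of these stood on high local backgrounds of 19.1 and 9.57 reads, against a genome-wide rate of 0.842 reads in that library, and held no element.

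High local background marked a small group of members. At 297 members the background was at most 2 times the genome-wide rate of the list and at 39 it was 2 to 5 times that rate, and 71.7% and 79.5% of these held a p53 element. At 9 members it was over 5 times the rate, 7 of them in replicate 2 alone. Of the 9, 0 held an element, which allows a share of up to about 33.3% (3 counts of 9, an approximate bound). The highest backgrounds, 223 and 208 reads, belonged to a neighbouring pair of sites near FAM72B on chromosome 1 (chr1:121484848-121485010 and chr1:121485188-121485335), with folds of only 1.31 and 1.36. These sites and the group of 9 were singled out after their values were seen. The 3 members on chromosome Y, 1 in replicate 1 and 2 in replicate 2, were the only distal p53 sites of any library mapped to that chromosome and also held no element. Whether their reads came from chromosome Y was not tested, so they are not shown to be binding there.

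The rule was set by limits that some members barely met. The members closest to a promoter lay 62 bp from it in an intron of PDE10A, a phosphodiesterase (fold 12.1 and 6.13), 69 bp at RPS4X and 75 bp at PRKCH. The sites left out with the smallest overlap shared 73 bp with a promoter of LAMA3 and 147 bp each with those of SULF2 and PPP2R3A. At SULF2 and PPP2R3A the 147 bp were the whole site, which lay fully inside the promoter, so this overlap does not measure nearness to the limit. The members closest to a G12V peak lay 230 bp from it (nearest TSS DHX35, at 781470 bp), 232 bp (EGFL7, at 35695 bp) and 789 bp (MSGN1, at 1627 bp), with folds of 5.08, 5.13 and 5.58 in replicate 1. The nearest sites left out, with TMEM65, NR6A1 and TANC1 as nearest genes, overlapped a G12V peak by 12, 60 and 62 bp. Most members were far from these limits, with a median gap of 338494 bp to the nearest G12V p53 peak.

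Most members held a p53 element. In the 150 bp centred on the summit, 244 of 345 (70.7%, 95% exact interval 65.6 to 75.5%) had a pair of adjacent half-sites in which each core kept its C and G and no more than 3 other bases departed from the pattern, against 4 of 690 windows (0.580%) placed 2000 bp to either side and 70.4% of all 2980 p53 sites. The best element had 0 mismatches in 19 members, 1 in 46, 2 in 105 and 3 in 74. The members called in both lists held one in 53 of 64 cases (82.8%), those of replicate 1 alone in 177 of 249 (71.1%) and those of replicate 2 alone in 14 of 32 (43.8%, 26.4 to 62.3%). Among members without an element, 27 of 101 held an exact single half-site and 14 of 101 a pair of half-sites set apart by a spacer of 1 to 13 bp with at most 2 mismatches. Among all p53 sites without an element these were 334 and 177 of 881, and among G12V-only sites 160 and 85 of 435. Both were thus no more frequent at members.

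Members held an element less often than core distal sites and more often than G12V-only distal sites, which had a peak in 1 or both G12V lists and none in MCF10A. Core sites had one in 264 of 288 cases (91.7%), a difference of -20.9 percentage points (95% Newcombe interval -26.6 to -15.0, two-sided Fisher's exact test adjusted over the 20 comparisons by the Benjamini-Hochberg method, p = 2.96e-10). G12V-only sites had one in 593 of 1028 cases (57.7%), a difference of 13.04 points (7.21 to 18.5, exact test, adjusted p = 0.000122). The test takes sites as its units, with no error between cultures. Core sites also had stronger peaks than members. The lowest percentile of their best within-list rank was 44.3, against an upper quartile of 43.2 at members. No core site was left among sites of similar rank, so the difference from core sites could not be compared at like strength. Partly shared sites held an element in 844 of 1035 cases (81.5%), close to the 82.8% of members of both lists, and were not tested. When each list was reduced to its 477 strongest peaks, 84.9% of 232 members held an element, and the difference from core sites was -6.47 points (exact test, adjusted p = 0.120). With a peak required in both lists it was -8.85 points (exact test, adjusted p = 0.337), and the difference from the 34 G12V-only sites left turned to -2.48 points (adjusted p = 1). Without MCF10A replicate 1 the difference from G12V-only sites was 4.00 points (exact test, adjusted p = 0.801), and among sites of similar rank it was 11.05 points (adjusted p = 0.0530).

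**Figure D3:**
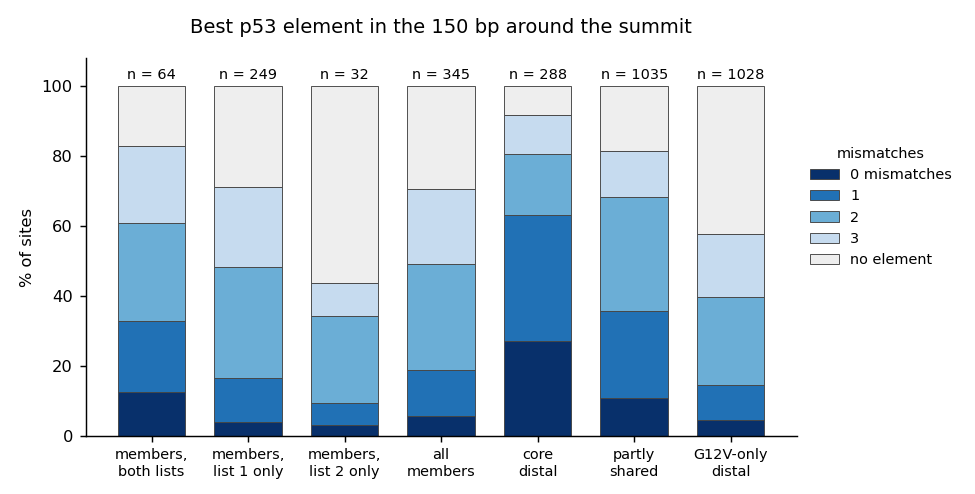
Quality of the p53 element by class of distal site. Each bar divides the sites of a class (n above it) by the number of mismatches of the best element in the 150 bp around the summit, in percent of sites. Elements with 0 or 1 mismatch make up 18.8% of all members, 63.2% of core sites, 35.8% of partly shared sites and 14.5% of G12V-only sites.

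Elements close to the consensus were less frequent at members than at core sites. At most 1 mismatch was found in 65 of 345 members (18.8%), 182 of 288 core sites (63.2%) and 371 of 1035 partly shared sites (35.8%). The share was 149 of 1028 (14.5%) at G12V-only sites and 26.7% at all p53 sites. In the members of both lists the share was 21 of 64 (32.8%), close to that of partly shared sites. Of the 19 exact elements, 8 belonged to them, including those near CHL1 and near CHST2, THBS1 and THSD4, which were named after their values were seen. The core CATG made up 314 of the 488 half-sites of members (64.3%), 65.7% of those of core sites and 56.8% of those of G12V-only sites, and CAAG or its complement CTTG another 24.4% in members and 26.7% in core sites.

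The element share moved with peak strength. Ordered by rank within the list, 58.3% of the 115 weakest members held an element, 73.0% of the 115 in the middle and 80.9% of the 115 strongest. In the weakest of the 5 groups of distal sites of MCF10A replicate 1, 80 of 124 members (64.5%) and 159 of 197 sites with a G12V peak (80.7%) held one. In group 2 the shares were 76.3% and 75.9%, in group 3 they were 81.4% and 84.4%, and in group 4 they were 82.8% and 87.0%. These groups were compared after the element shares were known and carry no test. In MCF10A replicate 2 the shares of members and of sites with a G12V peak were 59.1% of 44 and 83.1% of 118 in the weakest group, 73.1% of 26 and 87.5% of 136 in group 2, 73.3% of 15 and 83.7% of 147 in group 3, and 100% of 10 and 84.2% of 152 in group 4. Members thus had the lower share in groups 1 to 3 of replicate 2, whereas in replicate 1 the gap in group 2 was below 1 point.

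Within the 150 bp searched, most elements sat near the summit. Its centre lay within 25 bp of the summit in 170 of 244 members (69.7%), 236 of 264 core sites (89.4%) and 388 of 593 G12V-only sites (65.4%), and within 10 bp in 41.4%, 51.5% and 36.4%. The search window itself limits the distance and ties went to the element nearer the summit. The share that random placement would give was not computed. The median distance was 13.5 bp in members and 9.5 bp in core sites. The summits of members rested on fewer reads, with a median of 16 reads against 51.5 at core sites in replicate 1, and the part of this in the distances was not tested.

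**Figure D4:**
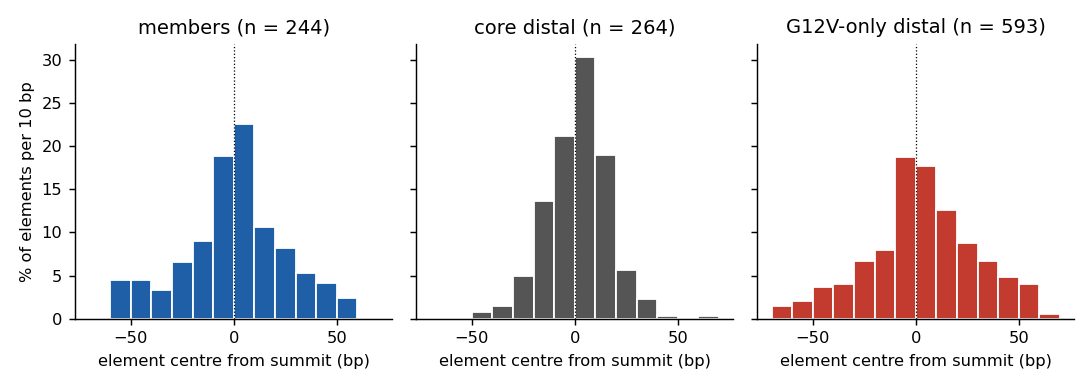
Position of the p53 element. The horizontal axis is the distance in bp of the element's centre from the peak summit along the forward strand, in bins of 10 bp, and the vertical axis is the percent of the elements of the class. All 3 classes peak at the summit, and 69.7% of member elements, 89.4% of core elements and 65.4% of G12V-only elements lie within 25 bp of it.

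Letters of the AP-1 family, whose FOS and JUN dimers act downstream of growth factor and RAS signalling, were found at few members. TGACTCA, searched on both strands without a mismatch in the same 150 bp, was found in 7 of 345 members (2.03%, exact interval 0.820 to 4.14%), against 2.61% of their flanking windows and 6.71% of all p53 sites. It was found in 18 of 288 core sites (6.25%, a difference of -4.22 points, -7.79 to -1.14, Fisher's exact test, adjusted p = 0.0250) and in 97 of 1028 G12V-only sites (9.44%, -7.41 points, -9.61 to -4.74, adjusted p = 8.56e-06). The difference from core sites lost its call without MCF10A replicate 1, G12V replicate 1 or G12V replicate 2 (-2.37, -2.51 and -1.09 points, exact test, adjusted p = 0.801, 0.152 and 0.628), and that from G12V-only sites without MCF10A replicate 1 or G12V replicate 2 (-5.55 and -8.41 points, adjusted p = 0.229 and 0.158). The core call was also lost with lists of equal length (-2.16 points), a peak in both lists (-4.69), wider promoters (-3.85) or a 300 bp window (-2.83), at adjusted p from 0.0715 to 0.557 in the exact test, and the G12V-only call among sites of similar rank (-6.07, adjusted p = 0.0530) or with a peak in both lists (-13.1, adjusted p = 0.337).

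The letters of other factors that bind epithelial enhancers did not pass the test in either comparison. TEAD letters (ACATTCC, the factors that carry the Hippo pathway's coactivators) were in 2.90% of members, 4.51% of core sites and 4.28% of G12V-only sites, and 2.90% of member flanks. RUNX letters (TGTGGTT) were in 2.03%, 0.694% and 2.33%, and in 3.33% of member flanks. CEBP letters (TTGCNNAA), which have fewer fixed bases, were in 11.9%, 17.4% and 9.82%, and in 10.0% of member flanks. GRHL letters (AACCNGTT), of the grainyhead-like factors of epithelia, were in 4 members (1.16%, and 0.870% of flanks), 0 of 288 core sites (exact interval up to 1.27%) and 3 G12V-only sites. FOX letters (TGTTTAC) were in 9 members (2.61%, and 2.03% of flanks), 5.90% and 2.92%. None of these 10 comparisons passed at an adjusted p of 0.05, the smallest being 0.111 for FOX letters in members minus core sites (-3.29 points, -6.86 to -0.140). That comparison passed with lists of equal length (-6.61 points, exact test, adjusted p = 0.00691) and with a window of 300 bp (-5.26 points, adjusted p = 0.0250).

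**Figure D5:**
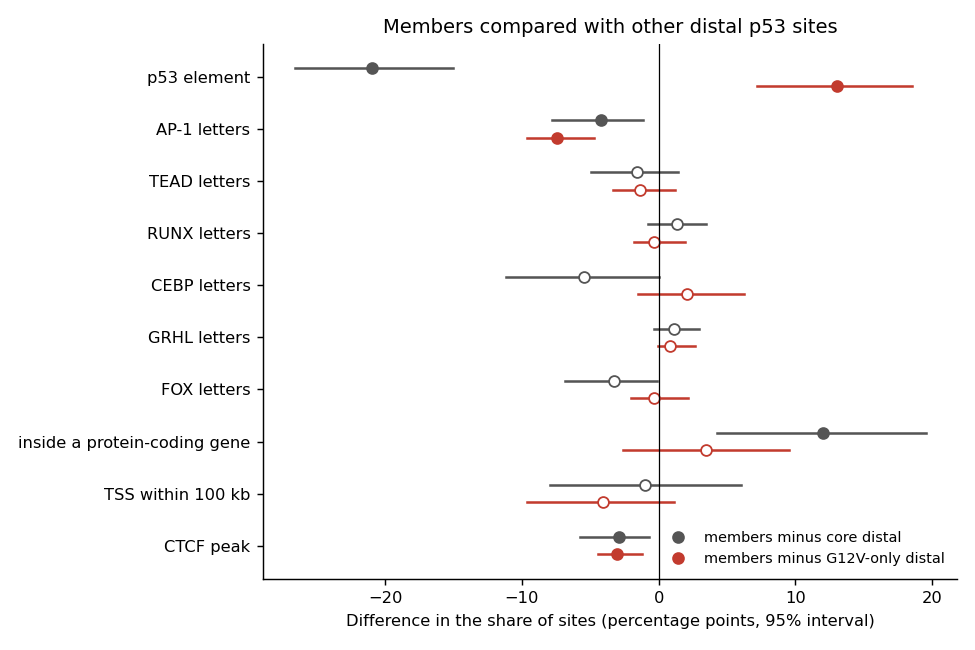
Members compared with other distal p53 sites. The horizontal axis is the share of members minus the share of core (grey) or G12V-only (red) sites in percentage points, lines are 95% Newcombe intervals, and filled points passed Fisher's exact test at an adjusted p of 0.05. The largest differences are those of the p53 element, -20.9 points against core sites and 13.04 points against G12V-only sites.

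About as many members lay inside protein-coding genes as outside them. Of the 345, 165 (47.8%) had their summit in an intron of a protein-coding gene, 4 in a UTR exon, 3 in a coding exon, 49 in a non-coding gene and 124 (35.9%) between genes. The 172 inside a protein-coding gene (49.9%) exceeded the share of core sites, 109 of 288 (37.8%), by 12.01 points (4.24 to 19.5, Fisher's exact test, adjusted p = 0.0117), and differed from G12V-only sites (46.4%) by 3.45 points (-2.62 to 9.51, adjusted p = 0.383). Over all 2696 distal sites the share was 46.0% and at partly shared sites 46.5%, so that the core sites lay farther from the overall share than the members did. The difference from core sites kept its direction but lost its call without MCF10A replicate 1 (8.38 points, exact test, adjusted p = 0.456) and without G12V replicate 1 (6.81 points, adjusted p = 0.152), with lists of equal length (10.8 points, adjusted p = 0.0664) and with a peak in both lists (7.47 points, adjusted p = 0.585). A TSS lay within 100 kb of 71.9% of members, 72.9% of core sites and 76.0% of G12V-only sites, differences of -1.03 points (-7.94 to 5.99) and -4.09 points (-9.65 to 1.15) that did not pass. The median distance to the nearest TSS was 31490 bp in members.

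Members were spread over the genome. They had 323 different nearest genes, 19 of which were nearest to 2 or more members, and only 7 pairs of members lay within 100 kb of each other. Pairs lay near PDE10A, CHST2, MCC, BMPER and CAMK1G, among others, which were named after their positions were seen. Only 14 members lay within 100 kb of a core site and 17 within 10 kb of a G12V p53 peak. Members were 345 of the 2696 distal sites in all, and 29 of 284 (10.2%) on chromosome 1, which had the most distal sites. They were 12 of the 46 distal sites of chromosome 21 (26.1%) and 20 of 93 of chromosome 14 (21.5%), against 7 of 145 on chromosome 8 (4.83%). Chromosomes 21, 14 and 8 were named after their shares were seen. The shares come from the calls themselves and were not tested.

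Few members lay near the gene lists examined, as did few distal p53 sites in general. Within 100 kb of the TSS of 40 established p53 target genes there were 2 members (0.580%), against 27 of the 2696 distal sites (1.00%) and 8 core sites (2.78%). One, at chr1:28568351-28568664 in an intron of ATP5IF1 and 17511 bp from SESN2, which encodes sestrin 2, a stress-induced inhibitor of mTORC1, had a fold of 10.9 in replicate 1 and an element with 2 mismatches. The other, at chr1:68204274-68204464 in an intron of GNG12 and 53021 bp from GADD45A, a gene of growth arrest and DNA damage response, had a fold of 7.20 in replicate 1 and no element. Both were called in MCF10A replicate 1 alone, and each gene had 2 further p53 sites within 100 kb, at GADD45A 1 of them in all 4 lists and at SESN2 1 of them G12V-only. Of 20 genes of the actin cytoskeleton, ANXA2 had a member (0.290% of members), and 14 distal sites (0.519%) lay near the list. None of the 23 genes of basal epithelial adhesion or the 11 RAS-MAPK feedback genes had one. Near these lists lay 7 and 3 distal sites (0.260% and 0.111%), shares at which 0 of 345 members tells little. No count near a list was tested.

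CTCF, the zinc-finger protein of insulators and domain borders, was found at few members, as at few distal p53 sites in general. A CTCF peak of either cell type overlapped 2 of 345 members (0.580%), 69 of all 2696 distal sites (2.56%), 20 of 1035 partly shared sites (1.93%), 10 of 288 core sites (3.47%, a difference of -2.89 points, -5.72 to -0.711, Fisher's exact test, adjusted p = 0.0437) and 37 of 1028 G12V-only sites (3.60%, -3.02 points, -4.41 to -1.22, adjusted p = 0.0107). The 2 sites lay in introns of HFM1 and PMF1, were called in MCF10A replicate 2 alone, and had folds of 1.65 and 1.82 on local backgrounds of 87.1 and 46.9 reads. Sites also differed in width, with a median of 187 bp for members, 573.5 bp for core and 259.5 bp for G12V-only sites. A core site is the union of peaks from 4 lists and the fragment length that sets the narrowest peak was 147 and 113 bp in the MCF10A and 279 and 180 bp in the G12V libraries, so the widths depend on which libraries form a site, and their part in the overlap was not tested. The difference from core sites lost its call without MCF10A replicate 1, G12V replicate 1 or G12V replicate 2 (-2.38, -1.47 and -0.789 points, exact test, adjusted p = 0.801, 0.237 and 0.487), and that from G12V-only sites without MCF10A replicate 1 or G12V replicate 2 (-0.971 and -4.20 points, adjusted p = 1 and 0.174). The core call was also lost with CTCF peaks required in both lists of a cell type (-1.39 points), p53 peaks in both lists (-3.47), wider promoters (-2.60) or a spacer in the element (-2.89, where the adjustment over the 20 tests changed), at adjusted p from 0.0510 to 0.486 in the exact test, and the G12V-only call among sites of similar rank (-2.44, adjusted p = 0.143) or with a peak in both lists (-5.88, adjusted p = 0.472).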

How the data were processed

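The series held 16 samples, and the peak lists of 4 p53 and 4 CTCF libraries (2 replicates per factor and cell type) were used here, while the input libraries entered only through the peak caller. Per the labels and the study's methods, the authors aligned reads to hg19 with Bowtie, kept unique alignments and called peaks on each library with MACS2 at its default q of 5% against an input. As deposited, a peak carries the summit position, its fold enrichment (the ratio of summit pileup to background, with 1 added to both), its −log10 p, its −log10 q, and a score derived from the latter, all from the authors' MACS2 run. They served to describe and rank peaks inside each list. Summit pileup, local background and calling depth were solved from fold and −log10 p, which gave whole reads within a tolerance of 0.001 on −log10 p for 100% of MCF10A p53 peaks, assuming a mappable genome of 2700000000 bp.

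Sequence came from GRCh37, where 0 peaks passed a chromosome end, and genes from GENCODE release 44 mapped to it. The p53 element and 6 other motifs were searched in the 150 bp centred on the strongest summit of each site. Shares were compared by two-sided Fisher's exact tests over sites, adjusted over 20 comparisons (10 measures, each against 2 classes). Such tests carry no replicate error, and the exact (Clopper-Pearson) and Newcombe intervals cover counting error only. Members, gene lists and tests were chosen with earlier results of these data known. Named members were the 10 with the smallest rank sum in both MCF10A lists, the 3 strongest of each single list, the 3 nearest to each limit of the rule, and those within 100 kb of a listed gene. Alternatives changed list length, thresholds, overlap, promoter size, window, element definition and libraries. The search was tested on simulated sequences, with Python 3.11.15, NumPy 2.4.6, SciPy 1.17.1 and pysam 0.24.0.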

Additional observations from a re-analysis of the deposited data

How the results depend on the processing

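There were 15 alternatives, 14 of them planned and 1, a fold enrichment of at least 4, chosen after seeing the data. The values were recomputed under each, except that CTCF peaks in both lists bear only on the CTCF shares and that sites of similar rank left no core site. Differences are in percentage points, members minus the other class, and where a change of value has no stated reason the cause was not tested. The number of members went from 345 to 64 with a peak required in both lists and to 173 when limited to those between the quartiles of their ranks, by construction, and ran from 96 (without MCF10A replicate 1) to 1292 (without G12V replicate 2) with 1 library left out. Their p53 element share was 84.9% with lists of equal length, 82.8% with a peak in both lists, 76.5% in a 300 bp window, 49.3% with at most 2 mismatches and 56.2% with those and a spacer, and 69.8 to 78.2% with 1 library left out.

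With lists of equal length the difference from core sites lost its call for the p53 element (-6.47), AP-1 letters (-2.16) and position inside a gene (10.8), and changed sign for TEAD letters (0.431) and TSS within 100 kb (4.60), while FOX letters passed (-6.61); against G12V-only sites the sign changed for RUNX (3.76) and GRHL letters (-0.985), inside a gene (-0.800) and TSS within 100 kb (0.739). With a peak in both lists, where 64 members and 34 G12V-only sites were left, no call held: against core sites the p53 element gave -8.85, AP-1 -4.69, inside a gene 7.47 and CTCF -3.47, and against G12V-only sites the p53 element -2.48, AP-1 -13.1, TEAD 0.184, RUNX 3.12, CEBP -3.40, inside a gene -1.75 and CTCF -5.88. Among sites of similar rank the calls against G12V-only sites were lost for the p53 element (11.05), AP-1 (-6.07) and CTCF (-2.44), and the sign changed for TEAD (0.380), RUNX (0.683) and inside a gene (-1.51). Other calls lost against core sites were AP-1 (-3.85) and CTCF (-2.60) with wider promoters, AP-1 in a 300 bp window (-2.83), where FOX passed (-5.26), CTCF with a spacer allowed (-2.89, unchanged in value) and CTCF peaks required in both lists of a cell type (-1.39). Against G12V-only sites the p53 element lost its call with a spacer (5.16), and RUNX changed sign in a 300 bp window (0.256) and at a fold of at least 4 (0.0445).

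With 1 library left out, differences from core sites ran from -20.9 to -11.2 (p53 element), -6.67 to -1.09 (AP-1), 6.81 to 9.89 (inside a gene), -7.58 to 0.721 (TSS within 100 kb), -3.47 to -0.789 (CTCF), -0.0208 to 2.02 (RUNX), -3.82 to 0.172 (CEBP). Those from G12V-only sites ran from 4.00 to 21.8 (p53 element), -8.41 to -5.55 (AP-1), -3.91 to 3.84 (inside a gene), -10.8 to -2.91 (TSS within 100 kb), -4.20 to -0.971 (CTCF), -1.40 to 3.95 (TEAD), -0.421 to 2.63 (RUNX), -4.08 to 6.65 (CEBP) and -0.611 to 0.995 (GRHL). No paired analysis was possible because sites, not libraries, are compared and the classes are defined across all 4 lists. Of 300 recomputed values, 231 kept their direction and their side of the threshold or stayed close to the main value. Part of these were fixed in advance and say nothing on stability. The mismatch and spacer settings change only the p53 element, and the 300 bp window leaves member number, position and CTCF overlap as they were. The depth of 9.26 M reads of G12V replicate 1, with 477 peaks, limits what that list could show.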
